A study of Homo sapiens with 6 samples.

Results

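The genes described here are the chaperones, folding enzymes, stress sensors and quality-control factors of the endoplasmic reticulum (ER), 32 genes of the 23686 in the deposited tables, found by gene symbol. RNA sequencing was done on HCC15 and A427, established human non-small cell lung carcinoma lines whose genotype is labelled WT. Both lines were transfected with LGR6 siRNA 4, with LGR6 siRNA 2 or with a control siRNA named Tax, and each line and siRNA gave 1 library, 6 in all. All cells grew in RPMI medium with 5% fetal bovine serum and were collected 48 h after transfection. LGR6 is a cell-surface receptor of the R-spondin and Wnt pathway, and the design asks which genes go with its loss. The siRNA sequences were not used here.

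Proteins bound for secretion or for membranes enter the ER through the SEC61 channel, where Hsp70 and Hsp90 chaperones, lectin chaperones and protein disulfide isomerases fold them, and ER-associated degradation removes those that fail. When unfolded protein builds up, the sensors IRE1 (encoded by ERN1), PERK (EIF2AK3) and ATF6 start the unfolded protein response. IRE1 splices the XBP1 transcript, and the resulting factor and cleaved ATF6 raise transcription of many of the genes below, while PERK slows translation and favours synthesis of ATF4. Counts per gene do not separate spliced from unspliced XBP1.

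Total counts were 25546438 to 28987906 reads per library. LGR6 had 77 reads with siRNA 4, 39 with siRNA 2 and 257 with the control siRNA in HCC15, while A427 had 0, 0 and 5 reads, so the target could hardly be measured in A427. Epithelial markers summed to 3610 to 7900 TPM (transcript abundance scaled for gene length and library size) in HCC15 and 989 to 1260 TPM in A427. Of these markers, KRT8, KRT18, KRT19 and CDH1 were higher in HCC15, and KRT19 was at most 0.38 TPM in A427. EPCAM went the other way, with 27.6 to 53.8 TPM in HCC15 and 403 to 457 TPM in A427. Leukocyte markers were all at 0 in HCC15, and in A427 they summed to 1.22 to 1.58 TPM with 2 of 3 at 0. Fibroblast markers reached at most 7.25 TPM in HCC15 and 11 TPM in A427, and endothelial markers at most 0.04 and 0.25 TPM. Since no 2 libraries share both line and siRNA, and the labels do not say that cultures were separate, the p-values below carry no replicate error of a line and siRNA. In comparisons of siRNAs or lines, the spread is the disagreement of HCC15 and A427 on siRNA effects. Within a line, it is the difference between siRNA 4 and siRNA 2.

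Promoters of 29 members were in the RefSeq table of windows from 250 bases before to 50 after the transcript start (GRCh38.p14). A search of both strands was made for the ER stress response element ERSE (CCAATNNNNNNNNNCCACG), for ERSE-II (ATTGGNCCACG) and for the core of the unfolded protein response element UPRE (TGACGTGG), sites described for ATF6 and XBP1. ERSE was found in 7 members (HSPA5, HSP90B1, CRELD2, PDIA6, CALR, CANX and XBP1), against 0.0769% of 35116 promoter windows. ERSE-II was found in 3 members (HYOU1, SDF2L1 and HERPUD1), against 0.0541% of windows, and the UPRE core in HYOU1, against 0.729%. A member was counted once if any of its windows held a match, while the shares are of windows and include the members' own. The elements were first described in genes such as HSPA5 and HERPUD1, so finding them there is no result. 6 windows are printed, chosen from genes described below, all with a match except DNAJB9. They are HSPA5 at chr9:125241294-125241593 on the minus strand, HSP90B1 at chr12:103930160-103930459 on the plus strand, and CRELD2 at chr22:49918384-49918683 on the plus strand. The others are HYOU1 at chr11:119057156-119057455 on the minus strand, HERPUD1 at chr16:56931892-56932191 on the plus strand, and DNAJB9 at chr7:108569624-108569923 on the plus strand. Each is written 5′ to 3′ along the gene's strand, with the fixed letters of a motif in capitals, as its complement where the motif lies on the other strand.
HSPA5: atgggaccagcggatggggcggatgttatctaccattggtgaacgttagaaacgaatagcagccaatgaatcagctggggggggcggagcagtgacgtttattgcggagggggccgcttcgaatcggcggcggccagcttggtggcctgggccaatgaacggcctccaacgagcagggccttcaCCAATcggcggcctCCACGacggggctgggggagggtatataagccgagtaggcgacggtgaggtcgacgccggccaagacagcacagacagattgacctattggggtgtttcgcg
HSP90B1: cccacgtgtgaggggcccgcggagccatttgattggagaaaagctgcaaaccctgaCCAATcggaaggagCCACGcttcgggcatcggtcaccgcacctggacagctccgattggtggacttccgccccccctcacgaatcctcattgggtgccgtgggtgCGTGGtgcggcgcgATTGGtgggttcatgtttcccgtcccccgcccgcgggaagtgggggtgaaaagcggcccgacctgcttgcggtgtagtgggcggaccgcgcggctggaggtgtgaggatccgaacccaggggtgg
CRELD2: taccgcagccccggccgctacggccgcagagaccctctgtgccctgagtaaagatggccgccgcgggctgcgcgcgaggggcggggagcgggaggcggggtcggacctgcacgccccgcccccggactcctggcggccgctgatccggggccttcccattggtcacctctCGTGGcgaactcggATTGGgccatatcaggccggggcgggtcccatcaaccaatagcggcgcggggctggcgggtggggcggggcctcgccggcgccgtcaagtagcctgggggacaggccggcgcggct
HYOU1: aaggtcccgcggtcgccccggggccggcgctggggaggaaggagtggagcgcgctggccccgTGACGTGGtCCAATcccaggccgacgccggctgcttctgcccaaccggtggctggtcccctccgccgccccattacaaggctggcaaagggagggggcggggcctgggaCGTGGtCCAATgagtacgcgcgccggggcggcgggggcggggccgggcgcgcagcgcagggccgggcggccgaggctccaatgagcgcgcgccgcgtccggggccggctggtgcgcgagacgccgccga
HERPUD1: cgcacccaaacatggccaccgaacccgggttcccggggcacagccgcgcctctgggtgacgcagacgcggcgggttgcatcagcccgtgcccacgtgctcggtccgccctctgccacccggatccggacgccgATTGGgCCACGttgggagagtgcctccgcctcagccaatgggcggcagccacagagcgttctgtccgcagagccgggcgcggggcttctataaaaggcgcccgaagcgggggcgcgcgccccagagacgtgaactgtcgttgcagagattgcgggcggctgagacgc
DNAJB9: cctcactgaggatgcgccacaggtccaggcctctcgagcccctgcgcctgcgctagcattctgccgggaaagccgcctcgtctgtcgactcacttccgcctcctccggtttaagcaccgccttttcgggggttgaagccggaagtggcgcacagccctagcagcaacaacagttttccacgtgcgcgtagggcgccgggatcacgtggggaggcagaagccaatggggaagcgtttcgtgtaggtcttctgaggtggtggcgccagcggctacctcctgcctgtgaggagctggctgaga
Counted from 1 at the 5′ end, the HSPA5 element spans positions 185 to 203, and HSP90B1 holds elements at 57 to 75 and, on the other strand, at 162 to 180. In HYOU1 the UPRE core at 63 to 70 overlaps the first ERSE-II, at 66 to 76. The DNAJB9 window has no capitals, which says only that these letters are not in this window. The window of DNAJB11, also described below, had no match and is not printed.

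The level of the module differed more between the lines than between the siRNAs. Per length, the 32 genes together made up 0.497%, 0.588% and 0.457% of all TPM in HCC15 with siRNA 4, siRNA 2 and control, and 1.14%, 1.23% and 1.26% in A427. With the control siRNA, calnexin (CANX), a membrane-bound lectin chaperone, was the highest member in HCC15 at 664 TPM, followed by HSP90B1, the ER Hsp90, at 454 TPM. In A427 the soluble lectin chaperone calreticulin (CALR) stood at 2525 TPM and HSP90B1 at 2509.8 TPM, too close to order with 1 library. At the low end, ERN1 had 5.73 TPM in HCC15 and 5.07 TPM in A427. DERL3, a derlin of ER-associated degradation, had 39, 6 and 6 reads in HCC15 with siRNA 4, siRNA 2 and control and 0 reads in each A427 library, where 3 reads, the limit that a count of 0 allows, would be at most 0.114 CPM. CPM are read counts scaled to library size, here on the scale of the TMM correction, and the limit covers counting error only. DERL3 did not have at least 10 reads in 2 libraries and was not tested, which leaves 31 members among 14481 genes tested.

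In HCC15 against A427, 19 members were lower and 6 higher at an adjusted p under 0.05, where 39.3% of all genes tested were lower and 37.2% higher (76.5% in either direction). The median log2 fold change was -0.74 over the 31 members and -0.03 over all genes. By role, 6 of 9 Hsp70, Hsp90 and partner genes, 4 of 4 protein disulfide isomerases, 5 of 7 degradation genes, 2 of 4 translocation genes, 1 of 3 glycoprotein folding genes and 1 of 4 sensor genes with XBP1 were lower. Among 30 other ER folding enzymes tested, 12 were lower and 11 higher, with a median of -0.00. Every HCC15 library lay below every A427 library for 16 of 32 members and above for 6, and the remaining 10 overlapped. The share of all genes without overlap was not computed, so these counts do not set the members apart from other genes. In bulk RNA of a cell line, fewer cells that express a gene and less of its RNA per cell cannot be told apart.

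DNAJB11, a J-domain co-chaperone of the ER Hsp70 BiP, had 16.7, 39.8 and 36.8 CPM in HCC15 with siRNA 4, siRNA 2 and control, against 144, 281 and 318 CPM in A427. The lines did not overlap, and the log2 fold change was -3.01 (SE 0.11, adjusted p 8.19e-08, edgeR with Benjamini-Hochberg adjustment, 3 libraries in each line). MANF, a secreted BiP-binding factor, had 26.6, 25 and 19.5 CPM in HCC15, against 155, 163 and 198 CPM in A427. Its highest HCC15 library was far below its lowest A427 library, at a log2 fold change of -2.86 (SE 0.16, adjusted p 8.85e-07, edgeR, Benjamini-Hochberg). CRELD2, an ER-stress-inducible disulfide isomerase-like protein, differed by -2.36 (SE 0.16), CALR by -2.25 (SE 0.14) and HSP90B1 by -2.01 (SE 0.13) on the log2 scale. HSPA5, which encodes BiP itself, had 764, 831 and 646 CPM in HCC15, against 1316, 1449 and 1505 CPM in A427. Its log2 fold change of -0.94 (SE 0.12, adjusted p 9.57e-05, edgeR, Benjamini-Hochberg) was smaller in size than those of DNAJB11, MANF, CRELD2 and HSP90B1.

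The 6 members higher in HCC15 were the channel subunit gene SEC61B, DERL1, the sensor gene ATF6, the translocon-associated subunit gene SSR1, the co-chaperone gene DNAJC3 and XBP1. SEC61B had 82.1, 61.7 and 65.8 CPM in HCC15 with siRNA 4, siRNA 2 and control, against 31.6, 25.9 and 28.6 CPM in A427, a log2 fold change of 1.28 (SE 0.10). The pore-forming subunit gene of the same channel, SEC61A1, went the other way at -1.17 (SE 0.10). ATF6 was at 0.74 (SE 0.10) and the PERK gene EIF2AK3 at -0.74 (SE 0.11), so these sensor genes also differed in opposite directions, while ERN1 was at 0.27 (SE 0.15, adjusted p 0.13, edgeR, Benjamini-Hochberg). The calls of DNAJC3 (0.32) and XBP1 (0.31) held in 5 of 11 other settings each, that of PDIA3 (-0.31) in 4 and that of SSR2 (-0.24) in 3. HYOU1, DNAJB9, CANX, UGGT1, ERN1 and HERPUD1 did not pass.

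**Figure D1:**
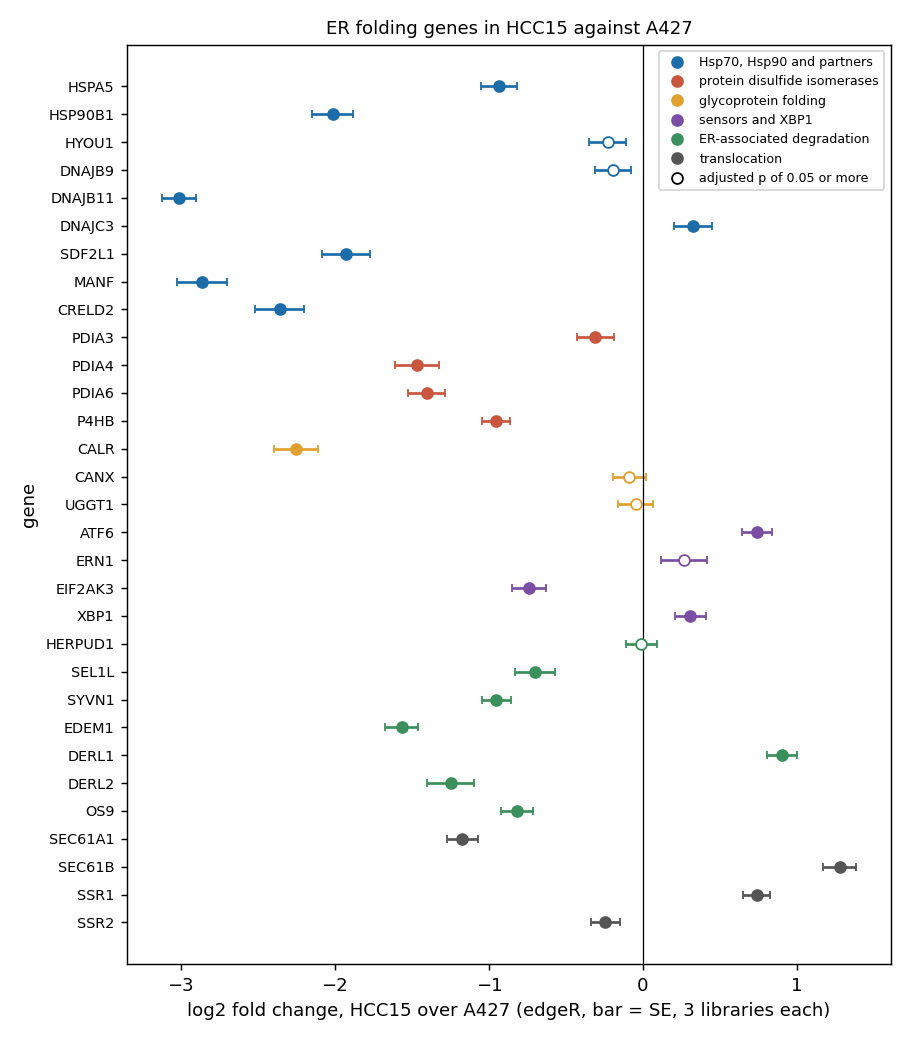
Log2 fold change of each tested member in HCC15 over A427 (x axis, edgeR, 3 libraries in each line) with its SE as a bar. Filled points passed an adjusted p under 0.05. Most points lie left of 0, down to -3.01 for DNAJB11, and SEC61B lies farthest right at 1.28.

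With siRNA 4, 3 of 31 members fell to between 28.7% and 45.4% of the control level in both lines. Of all genes, 7.46% fell more than 2-fold with siRNA 4 in HCC15 and 3.88% in A427. The share of all genes that did so in both lines was not computed. In siRNA 4 against control, 5 members were lower (DNAJB9, PDIA3, DNAJB11, HERPUD1 and XBP1) and 2 higher (SEC61A1 and SSR2), or 7 of 31, where 12.5% of all genes were called, 7.95% lower and 4.58% higher. The median over the members was 0.00 and over all genes -0.01, with 16 members above 0 and 15 below.

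PDIA3 encodes ERp57, the disulfide isomerase that works with calnexin and calreticulin on glycoproteins. It had 143 CPM with siRNA 4, 633 with siRNA 2 and 419 with control in HCC15, and 205, 626 and 564 CPM in A427. Both siRNA 4 libraries lay far below all the others, at 34.2% of the control level in HCC15 and 36.3% in A427. The log2 fold change to control was -1.50 (SE 0.15, adjusted p 0.00142, edgeR, Benjamini-Hochberg). PDIA3 and HSP90B1 had counts that were not whole in all 6 libraries, as when reads are shared with another gene. The similar genes PDIA3P and HSP90B2P had at most 442 and 40 reads in any library, against at least 3675 for PDIA3.

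DNAJB9, which encodes the BiP co-chaperone ERdj4, had 12, 31.6 and 35.2 CPM in HCC15 with siRNA 4, siRNA 2 and control, and 12.9, 34.2 and 44.8 CPM in A427. The siRNA 4 libraries were the lowest in both lines, and the log2 fold change to control was -1.68 (SE 0.15, adjusted p 0.00121, edgeR, Benjamini-Hochberg). For DNAJB11, whose values by library are given above, siRNA 4 left 45.3% of the control level in HCC15 and 45.4% in A427, a log2 fold change of -1.14 (SE 0.13, adjusted p 0.00188, edgeR, Benjamini-Hochberg). These falls were of like size in HCC15, with 257 LGR6 reads in its control library, and in A427, with 5; whether they depend on LGR6 was not tested.

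The other calls were smaller. HERPUD1, a membrane protein of the degradation machinery, had 60.2, 65.2 and 91.9 CPM in HCC15 with siRNA 4, siRNA 2 and control, and 64.7, 67.4 and 84.7 CPM in A427. All 4 LGR6 siRNA libraries were below the control of their line, and siRNA 4 passed at -0.50 (SE 0.12, adjusted p 0.0346, edgeR, Benjamini-Hochberg). XBP1 was at -0.46 (SE 0.12, adjusted p 0.0463, edgeR, Benjamini-Hochberg), with 62.7, 86.3 and 92.7 CPM in HCC15 and 55.1, 68.5 and 70.2 CPM in A427. Of the higher members, SEC61A1 had 274, 164 and 141 CPM in HCC15 and 552, 414 and 317 CPM in A427, highest with siRNA 4 in both lines, at 0.88 (SE 0.12, adjusted p 0.00419, edgeR, Benjamini-Hochberg). SSR2, another translocon-associated subunit gene, was at 0.65 (SE 0.11, adjusted p 0.0102, edgeR, Benjamini-Hochberg). When the control library of either line or the HCC15 siRNA 4 library was left out, 3 calls remained, PDIA3, DNAJB9 and DNAJB11. HERPUD1 and XBP1 were also lost without the A427 siRNA 4 library.

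**Figure D2:**
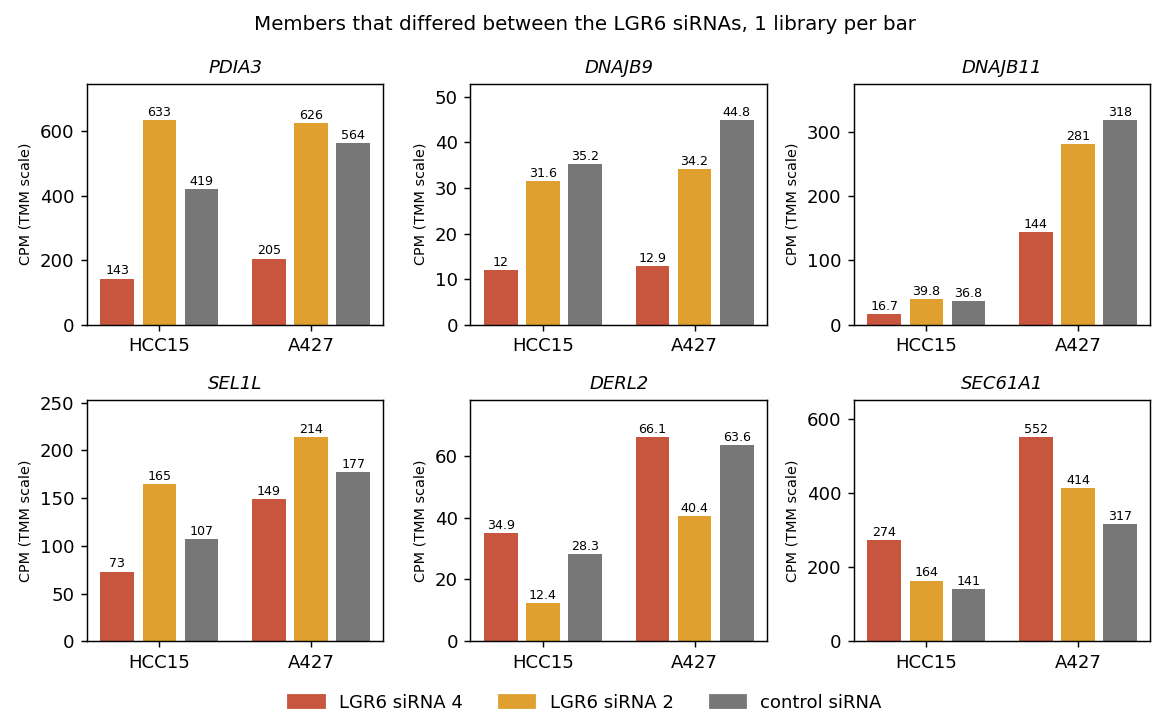
CPM on the TMM scale (y axis, from 0) of 6 members in each library, by line and siRNA, 1 library per bar. PDIA3, DNAJB9 and DNAJB11 are lowest with siRNA 4 in both lines, DERL2 is lowest with siRNA 2 in both, and SEC61A1 is highest with siRNA 4 in both.

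With siRNA 2, 1 member passed against control, where 7.62% of all genes were called, 2.96% higher and 4.66% lower. It was DERL2, a derlin of ER-associated degradation, which had 34.9, 12.4 and 28.3 CPM in HCC15 with siRNA 4, siRNA 2 and control, and 66.1, 40.4 and 63.6 CPM in A427. The siRNA 2 library was the lowest in both lines, at -0.89 (SE 0.19, adjusted p 0.0288, edgeR, Benjamini-Hochberg). That call was lost without either control library or the HCC15 siRNA 2 library. Without the A427 siRNA 2 library DERL2 stayed past the threshold and PDIA3 joined it. Both siRNA comparisons use the same 2 control libraries, so their values for a gene are not independent.

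Set directly against siRNA 2, with no control library in the difference, siRNA 4 gave 6 members lower and 3 higher, or 9 of 31, where 16.5% of all genes were called, 7.7% higher and 8.84% lower. PDIA3 was at -1.88 (SE 0.15, adjusted p 0.000539, edgeR, Benjamini-Hochberg), DNAJB9 at -1.40 (SE 0.15) and DNAJB11 at -1.10 (SE 0.13). SEL1L, the adaptor of the degradation ligase SYVN1, had 73, 165 and 107 CPM in HCC15 with siRNA 4, siRNA 2 and control, and 149, 214 and 177 CPM in A427. In both lines its control library stood between the siRNA libraries, and the log2 fold change of siRNA 4 over siRNA 2 was -0.85 (SE 0.16, adjusted p 0.011, edgeR, Benjamini-Hochberg). The sensor genes EIF2AK3 (-0.64, SE 0.14) and ERN1 (-0.63, SE 0.18) were lower and showed the same order, with control in between, in HCC15 and A427. ERN1 kept its call in 1 of 11 other settings. DERL2 (1.07, SE 0.19), SEC61A1 (0.58, SE 0.12) and SSR2 (0.53, SE 0.11) were higher. Without the HCC15 siRNA 4 or the HCC15 siRNA 2 library, the calls left were PDIA3, DNAJB9 and DNAJB11, 3 of 9.

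The other members gave no call between siRNAs by edgeR with all 6 libraries. SYVN1, the ligase of the degradation pathway, had 77.1, 73.7 and 75.1 CPM in HCC15 with siRNA 4, siRNA 2 and control, and 140.4, 151 and 146 CPM in A427. ATF6 had 142, 125 and 141 CPM in HCC15 and 82.5, 81.2 and 79.7 CPM in A427, and DERL1 had 93.3, 90.4 and 100.2 CPM in HCC15 and 51.3, 47.6 and 52.8 CPM in A427. For these 3 genes the libraries of a line lay close together while the lines stood apart. EDEM1, which delivers misfolded glycoproteins to degradation, had 38.4, 46.5 and 59.9 CPM in HCC15 and 126, 143 and 155 CPM in A427, below control with each siRNA. Its siRNA 4 value of -0.47 (SE 0.13) had an adjusted p of 0.0511 (edgeR, Benjamini-Hochberg), and EDEM1 was called by DESeq2 and by edgeR without the HCC15 siRNA 2 library. CANX had 1795, 1439 and 1632 CPM in HCC15 and 1809.9, 1389 and 2013 CPM in A427, and UGGT1, the folding sensor that returns glycoproteins to CANX and CALR, had 277, 177 and 235 CPM in HCC15 and 233, 204 and 266 CPM in A427. Both were lowest with siRNA 2 in each line, at -0.36 (SE 0.13) and -0.40 (SE 0.14), with adjusted p by edgeR (Benjamini-Hochberg) of 0.138 and 0.124. P4HB, the classical disulfide isomerase, had its highest level with siRNA 2 in both lines, 403, 535 and 423 CPM in HCC15 and 787, 986 and 852 CPM in A427, and did not pass (0.27, SE 0.11, adjusted p 0.175, edgeR, Benjamini-Hochberg). In siRNA 4 against siRNA 2, P4HB and XBP1 were called by DESeq2 and by limma, and DNAJC3 and UGGT1 by edgeR without the A427 siRNA 4 library.

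**Figure D3:**
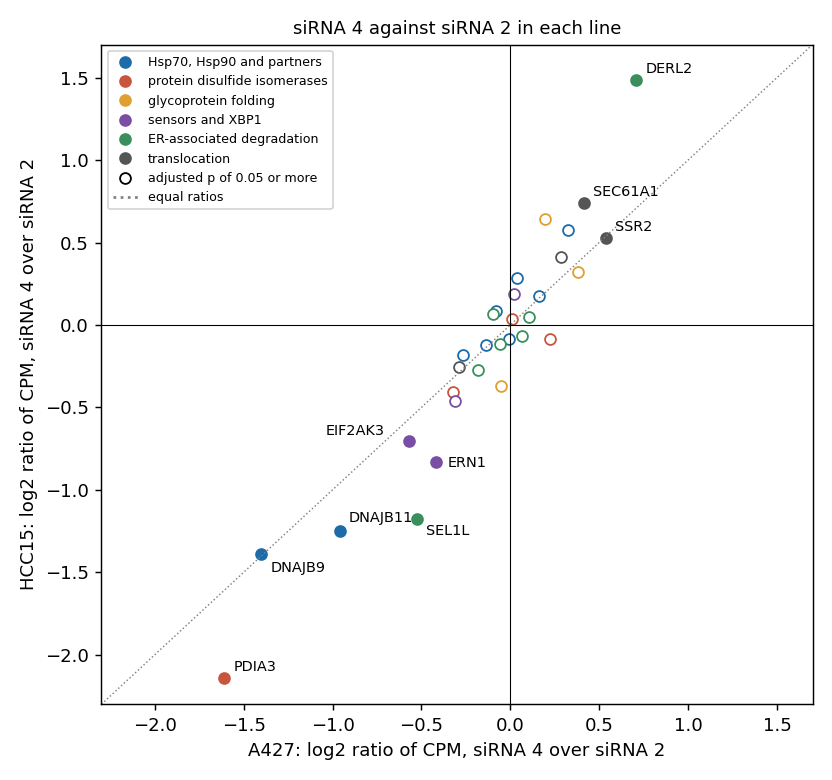
Log2 ratio of CPM, siRNA 4 over siRNA 2, in A427 (x axis) and HCC15 (y axis) for each tested member, coloured by role. Filled points passed an adjusted p under 0.05 over both lines. PDIA3, DNAJB9 and DNAJB11 lie at the lower left and DERL2 at the upper right.

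The lines share no library, so the direction in each can be set side by side. siRNA 4 over siRNA 2 had the same sign in HCC15 and A427 for 27 of 31 members, against 67% of all genes. For siRNA 4 over control it was 21 of 31, against 69.6%, and for siRNA 2 over control 21 of 31, against 65.2%.

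Taking both LGR6 siRNAs as samples of one silenced group, no member passed across the lines. The edgeR test called 0 of 31 members and 0% of all genes, and DESeq2 called 0 members. At an unadjusted p under 0.05 edgeR had 3 of 31 members (HERPUD1, OS9 and SEC61A1). All genes had a like share, 1512 of 14481, so this count does not set the members apart. HERPUD1 was at -0.46 (SE 0.13), SEC61A1 at 0.62 (SE 0.24) and OS9, a lectin of the degradation pathway, at 0.34 (SE 0.14), where the adjusted p by edgeR (Benjamini-Hochberg) was 0.324, 0.456 and 0.465. A fit that treats siRNA number as replicate block, and so takes the difference between the siRNAs out of the spread, passed 5 members, where it passed 8.96% of all genes, 3.31% higher and 5.65% lower. They were DNAJB9 (-0.98, SE 0.12), DNAJB11 (-0.59, SE 0.11), PDIA3 (-0.56, SE 0.12) and HERPUD1 (-0.46, SE 0.10), which were lower, and SEC61A1 (0.59, SE 0.11), which was higher. For PDIA3 that mean joins a siRNA 4 change of -1.50 with a siRNA 2 change of 0.38 (SE 0.15), which did not pass.

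**Figure D4:**
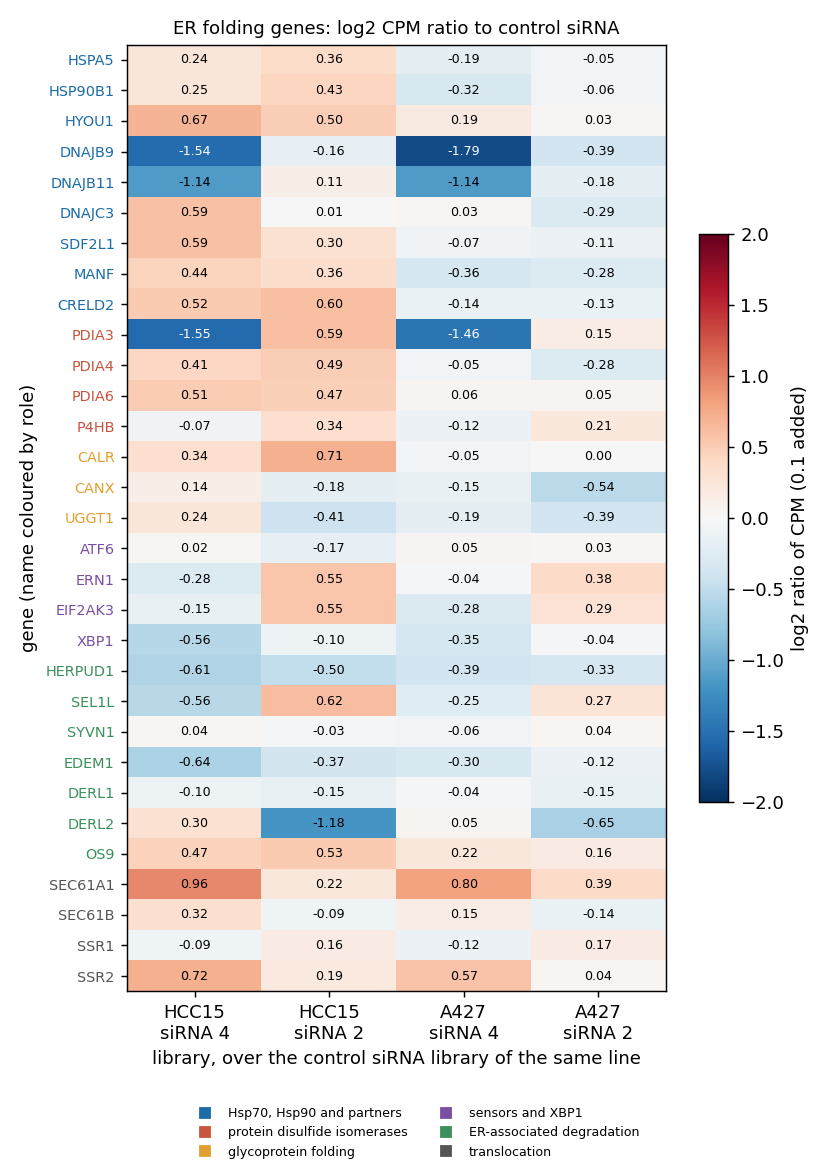
Log2 ratio of CPM (0.1 added) of each LGR6 siRNA library to the control siRNA library of its line, by member (rows, names coloured by role) and library (columns). DNAJB9, DNAJB11 and PDIA3 are low in both siRNA 4 columns, and the chaperone rows above 0 in the HCC15 columns are mostly near or below 0 in the A427 columns.

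Within each line and for the difference between lines, the count of members past the threshold was 0, as was the share of all genes (0%). At an unadjusted p under 0.05 edgeR had 0 members in each of these 3 comparisons, and DESeq2 called 0. Of the 14481 genes tested, 389 were under that p in A427, 535 in HCC15 and 78 for the difference (edgeR). With the replicate block the count stayed at 0 members, with 0.787% of all genes called in HCC15, 0.186% higher and 0.601% lower, and 0% in A427 and for the difference. That fit has 1 residual degree of freedom. In it the median log2 fold change over the members was 0.14 in HCC15 and -0.09 in A427, against -0.02 over all genes in each line. Without the block, HCC15 minus A427 response was above 0 for 25 of 31 members, with a median of 0.21, against 50.1% of all genes and a median of 0.00. It was above 0 for 9 of 9 Hsp70, Hsp90 and partner genes (median 0.48), 4 of 4 disulfide isomerases (0.38), 3 of 3 glycoprotein folding genes (0.32) and 4 of 4 translocation genes (0.07). It was above 0 for 3 of 7 degradation genes (-0.00) and 2 of 4 sensor genes with XBP1 (-0.05). Differences between the roles were not tested, none of these members was past the test, and all values in a line rest on its 1 control library.

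Both siRNAs lay above control in HCC15 and below it in A427 for 6 of 31 members, a pattern that 3.82% of all genes had. The reverse pattern had 0 members and 3.26% of all genes. The 6 are HSPA5, HSP90B1, MANF, CRELD2, PDIA4, a disulfide isomerase, and SDF2L1, which acts with DNAJB11. CRELD2 had 14, 14.9 and 9.77 CPM in HCC15 with siRNA 4, siRNA 2 and control, and 63.3, 63.6 and 69.7 CPM in A427. HSP90B1 had 742, 842 and 625 CPM in HCC15 and 2575, 3102 and 3225 CPM in A427. In HCC15 both LGR6 siRNA libraries exceeded the control, and in A427 both were under it. The response of CRELD2 was 0.57 (SE 0.24) in HCC15 and -0.14 (SE 0.23) in A427, and that of MANF was 0.40 (SE 0.23) in HCC15 and -0.32 (SE 0.22) in A427. Of these 6, HSPA5, HSP90B1 and CRELD2 hold ERSE and SDF2L1 holds ERSE-II. Over the 10 members with ERSE or ERSE-II the median difference was 0.46, with 8 above 0, and over the 19 with neither it was 0.12, with 16 above 0. HYOU1, the ER Hsp110-type chaperone whose window printed above holds 3 matches, had 458, 406 and 288 CPM in HCC15 and 479, 428 and 421 CPM in A427. It was above control in all 4 LGR6 siRNA libraries but did not pass for siRNA 4 (0.42, SE 0.14, adjusted p 0.0962, edgeR, Benjamini-Hochberg).

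**Figure D5:**
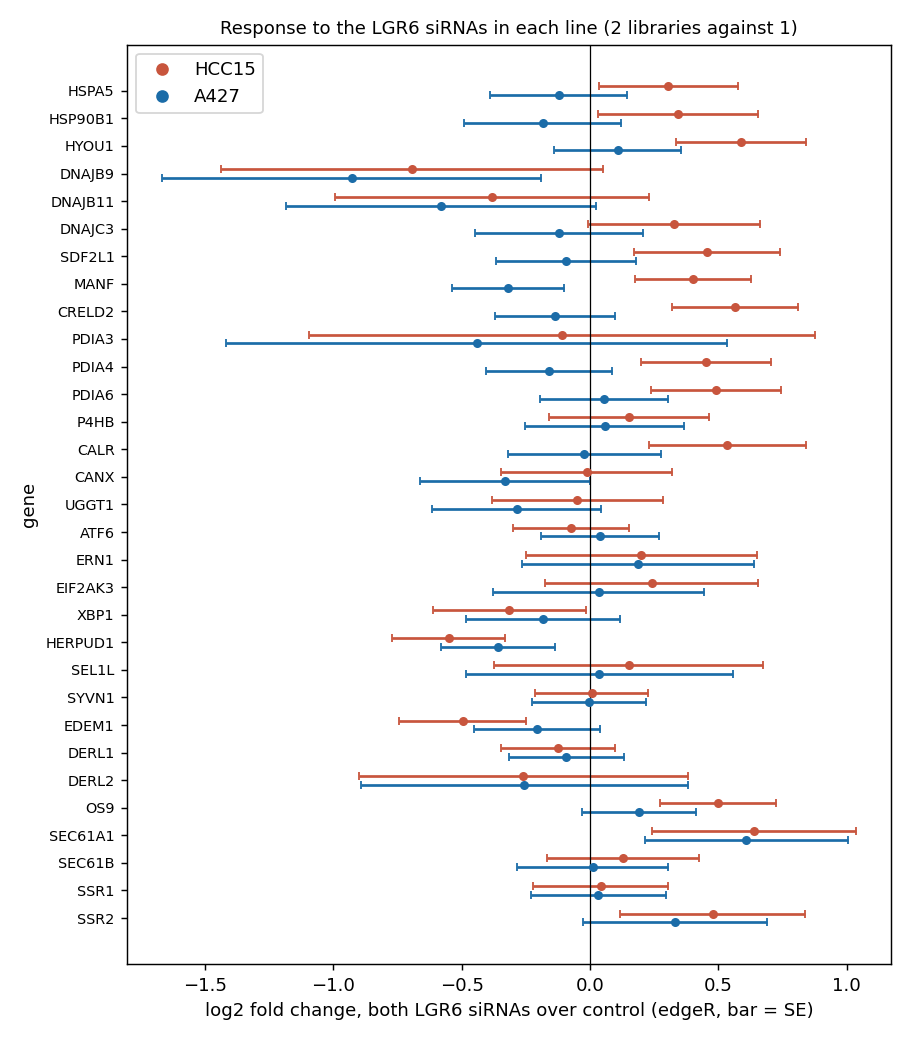
Log2 fold change of both LGR6 siRNA libraries over the control library in HCC15 and in A427 (x axis, edgeR, 2 libraries against 1, bar = SE), by member. Most chaperone points lie right of 0 in HCC15 and near or left of 0 in A427, with bars that are wide for genes on which the siRNAs differ, and no member passed.

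Another 106 genes of the pathway were listed, and 103 had enough reads. In siRNA 4 against control 5 were higher and 10 lower, or 14.6%, near the 12.5% of all genes. In siRNA 2 against control 4 were higher and 7 lower, or 10.7%, against 7.62% of all genes. MBTPS2 encodes the site-2 protease that cleaves ATF6. It had 13.1, 47.5 and 61.3 CPM in HCC15 with siRNA 4, siRNA 2 and control, and 18.7, 51.6 and 61.6 CPM in A427, a log2 fold change of -1.96 (SE 0.16, adjusted p 0.00121, edgeR, Benjamini-Hochberg) for siRNA 4. MAGT1, an oligosaccharyltransferase subunit gene, was also lowest with siRNA 4 in both lines, at -1.81 (SE 0.18). Set against siRNA 2, siRNA 4 gave 7 higher and 12 lower, or 18.4%, near the 16.5% of all genes. Among them were EDEM3 (-1.91, SE 0.17), a mannosidase gene of the degradation pathway, and MLEC (0.93, SE 0.13), a glycan-binding ER protein gene.

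Of 12 genes of the PERK and ATF4 arm, 3 were lower with siRNA 4, where 7.95% of all genes were, and 4 with siRNA 2, where 4.66% were, and 0 were higher with either by edgeR. CHAC1, a glutathione-degrading enzyme, had 9.43, 9.36 and 33 CPM in HCC15 with siRNA 4, siRNA 2 and control, and 3.19, 1.94 and 4.9 CPM in A427. All 4 LGR6 siRNA libraries were below control, at -1.35 (SE 0.27, adjusted p 0.0168) with siRNA 4 and -1.63 (SE 0.27, adjusted p 0.0129) with siRNA 2 (edgeR, Benjamini-Hochberg). CHAC1 passed in 8 of 11 other settings with siRNA 4 and 9 of 11 with siRNA 2. ATF4 and the asparagine synthetase gene ASNS were called with both siRNAs and the pseudokinase gene TRIB3 with siRNA 2. With siRNA 2, ASNS passed in 4 of 11 other settings and TRIB3 in 6 of 11. ATF4 was named after its values were seen. The comparison of this arm with the chaperones was not tested.

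Between the lines, 40 of these 103 genes were higher and 37 lower in HCC15, or 74.8%, about the share of all genes (76.5%). PRKCSH, the beta subunit of glucosidase II, had 5000, 5360 and 4758 reads in HCC15 with siRNA 4, siRNA 2 and control, against 1, 0 and 0 reads in A427, where 3 reads would be at most 0.114 CPM. DDIT3, the stress-induced transcription factor CHOP, was lower in HCC15 at -2.70 (SE 0.17), and CREB3L1, a membrane-bound transcription factor of the ER, was higher at 6.08 (SE 0.30), with 1 to 7 reads in A427 libraries.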

How the data were processed

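Per the labels' protocols, column-purified, DNase-treated RNA was made into libraries with a KAPA mRNA HyperPrep kit. The submitters' processing notes name FastQC 0.11.1, STAR 2.5.3a, RSEM 1.3.3 and hg19. Which annotation was counted was not given in the sources used here. Expression tables were deposited by the authors as RSEM expected counts, estimates that need not be whole, and TPM for 23686 genes by symbol. The expected counts were rounded to whole numbers here. The TPM deposited by the authors served for levels between genes and as an alternative.

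The 14481 genes that reached 10 reads in 2 or more libraries were tested, with TMM scaling and edgeR 4.0.16 quasi-likelihood fits in R 4.3.3, Benjamini-Hochberg adjustment over all genes and a threshold of 0.05. Each siRNA against control, siRNA 4 against siRNA 2 and HCC15 against A427 came from a fit of line plus siRNA (2 residual degrees of freedom), silencing across both lines from line plus arm (3), and the responses within lines and their difference from line by arm (2). All 8 comparisons are reported. Per the labels, a siRNA number names 1 reagent used in both lines, so it pairs samples and served as a replicate block. Alternatives used DESeq2 1.42.0, limma 3.58.1 on log2(TPM + 1) or log2(TPM + 0.1), DESeq2 size factors, no low-count filter, and each library left out. The fits were tested on simulated counts in which 100 genes were changed 2-fold. Of these, 98% were called for HCC15 against A427, 71% within HCC15, 54% within A427 and 17% for the difference between responses. The simulated counts held no disagreement between siRNAs or lines beyond a fixed spread, so they do not show how many real changes were missed. Chi-square over degrees of freedom was at least 58.6 for each pair of libraries, so none was a duplicate.

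The members, the lists of other pathway genes and the comparisons were chosen with earlier results of these data known. Every member could be named, and of other pathway genes up to 3 per direction with the largest change past the threshold and a mean CPM of at least 1. The promoter search, which covered 3 motifs, and the pattern of opposite lines were added after seeing the data. Members without a call that are given under other settings (HSPA5, HSP90B1, SDF2L1, MANF, CRELD2, PDIA4, PDIA3, DNAJB9, DNAJB11, HERPUD1 and SEC61A1) were likewise chosen after their values were seen. 8 genes were matched by older symbols.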

Additional observations from a re-analysis of the deposited data

Results flagged for a closer look

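In 6 members both LGR6 siRNA libraries lay above the control in HCC15 and below it in A427. The difference between the responses, HCC15 minus A427 on the log2 scale, was 0.43 for HSPA5, 0.53 for HSP90B1, 0.55 for SDF2L1, 0.72 for MANF, 0.70 for CRELD2 and 0.61 for PDIA4. The test of the difference did not pass for any of them (adjusted p of 1, edgeR with Benjamini-Hochberg adjustment). Both ratios in a line share its 1 control library. Over 9 other settings the differences ranged from 0.36 for HSPA5 to 0.76 for CRELD2 and MANF. The 6 members were picked by these signs, so leaving out a siRNA library could not change them. No setting left out a control library, so the constant sign is no support for the pattern.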

How the results depend on the processing

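The count of members called changed when single libraries were left out. With 1 library left out at a time it was 0 to 2 for siRNA 2 against control, 3 to 8 for siRNA 4 against control, 3 to 9 for siRNA 4 against siRNA 2 and 22 to 23 for HCC15 against A427. For siRNA 2 against control the count over all genes changed as well, and it fell in each fit that lost DERL2. A lost call there is therefore not particular to the members. For the other comparisons the counts over all genes are not set beside these, so calls lost there do not set the members apart. The cause was not tested. PDIA3, DNAJB9 and DNAJB11 passed in 11 of 11 alternatives in both siRNA 4 comparisons. These comparisons share the siRNA 4 libraries and come from the same fit, so they are not independent. For silencing across both lines the count was 0, and 5 when siRNA number entered as replicate block; that block gave 0 members within A427, within HCC15 and for the difference. Of 1246 values for single genes under other settings, 116 lost a call, 11 gained one, and 24 had another sign, 0 of these called in either setting; the other 1095 did none of these. The sign changes were in silencing across both lines, within a line and in the difference, and 21 of 24 came from leaving out 1 library. In 7 of 24 the value moved by at least its SE. These were HSPA5, HSP90B1, SDF2L1, MANF, CRELD2 and PDIA4 across both lines without the HCC15 control library, and PDIA3 for the difference without the HCC15 siRNA 2 library (-1.11). The others were smaller against their SE and included PDIA3 within each line and DNAJB9, DNAJB11 and SEC61A1 for the difference. The response of a line could not be estimated without its control library.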
